A study of Mus musculus with 28 samples.

Results

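The genes described here encode the matrix metalloproteinases (Mmp), the secreted ADAMTS proteinases and the tissue inhibitors of metalloproteinases (Timp), followed in AB1-HA mesothelioma tumors of mice given chemotherapy, immune checkpoint blockade (ICB) or both. The family was picked with earlier results of these data known, and its members were then taken by symbol. Of the 55341 gene rows measured, 46 carried such a symbol, and 41 of these reached 10 counts in at least 1 tumor and were kept. The 41 were 18 of 23 Mmp genes, all 19 Adamts genes and all 4 Timp genes. The 5 left out for low counts were Mmp1a, Mmp1b, Mmp20, Mmp21 and Mmp24.

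Matrix metalloproteinases are zinc-dependent enzymes that are made as inactive proforms and cleave collagens, elastin, basement membrane proteins, growth factor carriers and chemokines. ADAMTS enzymes carry thrombospondin repeats and cut proteoglycans, procollagens and von Willebrand factor. TIMPs are small secreted proteins that occupy the active site of these enzymes, and each has its own preferences among them. In tumors such enzymes are made by cancer cells, fibroblasts, endothelial cells and infiltrating leukocytes, so that RNA from a whole tumor adds up all of these sources.

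RNA came from 28 whole subcutaneous tumors, each from its own female BALB/c.AusBP mouse of 8 to 10 weeks. AB1-HA is a mouse mesothelioma line that carries influenza hemagglutinin, and mice were treated once their tumors measured 20 to 25 mm2. The groups were PBS (4 tumors), ICB (5 tumors), 5-FU (5 tumors), Cisplatin (4 tumors), 5-FU+ICB (5 tumors) and Cisplatin+ICB (5 tumors). For ICB, mice received antibodies at 100 µg a dose, 1 dose against CTLA-4 and 3 against PD-L1. 5-FU, a pyrimidine analog that blocks thymidylate synthesis, was injected intravenously at 75 mg/kg. Cisplatin, a platinum drug that crosslinks DNA, was injected intraperitoneally at 6 mg/kg. The tumors were taken 7 days after the start of treatment, and all of them stem from 1 cell line grown at 1 site.

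Each tumor had between 23541733 and 33950805 counts, so that 3 counts correspond to 0.0884 to 0.127 CPM depending on the tumor. CPM are the estimated counts of a gene scaled to library size with TMM factors, gene positions are those of GRCm38, and every ± after a mean level is an SD over the tumors of a group. Tumors of a group had a median correlation of at least 0.951 with their group mates over 18521 genes in all but 3 cases. These were Cisplatin+ICB replicate 1 (0.845), 5-FU+ICB replicate 5 (0.919) and 5-FU+ICB replicate 2 (0.932). Many, but not all, of the results that rest on them are given with and without them. The 5 skeletal muscle markers summed to 101 to 167 CPM in PBS, 1.61 to 3156 in ICB, 7.90 to 1306 in 5-FU, 2.36 to 4350.0 in 5-FU+ICB, 92.7 to 288 in Cisplatin and 70.6 to 855 in Cisplatin+ICB, and 0 of 5 were called in any comparison with PBS. Among the mesothelial markers, Msln stood at 271 to 358 CPM in the PBS tumors, whereas Wt1 (0 to 0.181 CPM) and Upk3b (0 to 0.0332 CPM) were near 0. The mesothelial markers summed to 333 to 479 CPM in PBS, 147 to 299 in ICB, 174 to 279.6 in 5-FU, 182 to 303 in 5-FU+ICB, 279.6 to 382 in Cisplatin and 232 to 904 in Cisplatin+ICB, where Msln was called lower with 5-FU+ICB (-2.28, log2 fold change by edgeR) and Wt1 higher with every treatment but Cisplatin alone. With 5-FU+ICB Krt19 (5.74) and Pdpn (0.61) were called higher as well. The part of tumor cell content in the results below was not tested.

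Of the Mmp genes with a symbol match, 10 lie side by side in 427 kb of chromosome 9 (chr9:7272514-7699585, GRCm38), and 7 of these were kept. The RefSeq promoter table used (GRCm38.p6) has entries for 27 of the 41 genes, with 30 promoter windows of 250 bases before to 50 bases after the start. The 14 genes without an entry were Mmp2, Mmp9, Mmp16, Mmp17, Mmp19, Adamts4, Adamts5, Adamts6, Adamts7, Adamts8, Adamts10, Adamts15, Adamts16 and Adamts19. The AP-1 motif TGANTCA, searched on both strands, was in 5 of the 30 windows (16.7%), and in 7.81% of the 32851 windows of all genes. The 5 belong to Mmp3, Mmp7, Mmp10, Mmp12 and Mmp13, all of them in the chromosome 9 cluster. They are shown because Mmp3, Mmp12 and Mmp13 carry results below, while Mmp10 and Mmp7 next to them were low, with at most 74 and 14 counts in any tumor. Each line gives the 100 bases before the start site, 5′ to 3′ on the plus strand, with the AP-1 match in capitals.
Mmp3, chr9:7445722-7445821: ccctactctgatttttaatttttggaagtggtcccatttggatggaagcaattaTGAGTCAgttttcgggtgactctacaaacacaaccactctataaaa
Mmp10, chr9:7502242-7502341: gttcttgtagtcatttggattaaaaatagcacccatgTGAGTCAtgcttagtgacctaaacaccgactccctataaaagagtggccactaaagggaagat
Mmp12, second of its listed start sites, chr9:7347274-7347373: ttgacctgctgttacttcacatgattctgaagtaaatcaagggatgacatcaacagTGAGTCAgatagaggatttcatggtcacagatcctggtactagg
Mmp13, chr9:7272414-7272513: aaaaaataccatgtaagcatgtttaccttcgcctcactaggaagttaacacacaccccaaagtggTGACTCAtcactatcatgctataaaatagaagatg
Mmp7, first of its listed start sites, chr9:7691990-7692089: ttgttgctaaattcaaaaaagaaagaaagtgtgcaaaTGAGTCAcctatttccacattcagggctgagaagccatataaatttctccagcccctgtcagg
The match began at position -46 from the start site in Mmp3, at -63 in Mmp10, at -44 in Mmp12, at -35 in Mmp13 and at -63 in Mmp7. In the same windows the hypoxia response core ACGTG was in 26.7% of those of the 41 genes and 19.6% of all and the GAS motif TTCNNNGAA in 6.67% and 8.3%, both strands searched. A match is a string of letters and not a measured binding site.

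In the PBS tumors the highest level per kb of merged exon sequence was that of Timp1 at 238 ± 34.7 CPM per kb, followed by Mmp9 at 179 ± 42.3 and Timp2 at 105 ± 13.3. Mmp14, the membrane-type 1 enzyme, followed at 62.5 ± 18.1, and Mmp2 at 18.6 ± 7.46 CPM per kb. Timp1 overlapped Mmp9 in range, and Mmp9 lay above Timp2 in each of the 4 tumors. The most abundant ADAMTS gene per length was Adamts1, at 10.4 ± 4.90 CPM per kb. The proteinase RNA of untreated tumors was thus mostly that of the gelatinase Mmp9 and the membrane-type enzyme Mmp14, beside abundant inhibitor RNA of Timp1 and Timp2.

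The questions of the comparisons were how each treatment changed these RNAs against PBS, and how a combination differed from its parts. A gene was called where edgeR's Benjamini-Hochberg adjusted p over all genes tested was under 0.05 and the absolute log2 fold change over 0.5. The comparisons with PBS share the same 4 PBS tumors. Of the 41 genes, 35 passed the filter on low counts among the tumors of the 5-FU study arm with their controls, and 31 among those of the Cisplatin arm. Adamts13, Adamts19, Adamts20 and Timp4 passed in the 5-FU matrix and not in the Cisplatin matrix, and 6 genes, Adamts3, Adamts16, Adamts17, Adamts18, Mmp7 and Mmp16, passed in neither. In all, 24 genes were called at least once by edgeR in the full data and 11 of those tested never.

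Against PBS, ICB changed 11 of the 35 genes, 9 higher and 2 lower, which is 31.4% where 37.8% of all genes were called. 5-FU changed 15 of 35, 14 higher and 1 lower, or 42.9% beside 23% of all genes. 5-FU+ICB changed 21 of 35, 19 higher and 2 lower, or 60% beside 40.7% of all genes. Of all genes, 19% were called higher and 18.8% lower with ICB, 9.98% and 13% with 5-FU, and 21.9% and 18.7% with 5-FU+ICB. Without ICB replicate 4 the count for ICB was 17 of 35, or 48.6% beside 39.8% of all genes in the same fit. For 5-FU it was 9 of 35 without PBS replicate 1 or 5-FU replicate 5, or 25.7% beside 10.5% and 14.1%, and 8 of 36 without PBS replicate 2, or 22.2% beside 7.87%. With any 1 tumor left out, the share for 5-FU and 5-FU+ICB lay above that of all genes in the same fit, and the share for ICB below it in each fit but the one without ICB replicate 4. Adamts13, Adamts19, Adamts20 and Timp4, with 0 to 6 counts in the PBS tumors, passed the filter in the 5-FU matrix and not in the Cisplatin matrix, so that their calls are no support for these shares. Over the 31 genes past the filter in both matrices the counts were 11 for ICB, 14 for 5-FU and 17 for 5-FU+ICB, or 35.5%, 45.2% and 54.8% beside 38.3%, 23.2% and 40.5% of all such genes, with medians of 0.87, 0.77 and 1.10. Among these 31, Mmp8, Mmp17 and Adamts8 also had few counts in the PBS tumors (0 to 3, 4 to 7 and 0 to 7). They passed the filter through treated tumors, so that their calls are no support for these shares either. The median log2 fold change of the 35 was 1.08 for ICB, 1.04 for 5-FU and 1.89 for 5-FU+ICB, where the medians of all genes were -0.03, -0.01 and -0.04. With the 2 genes that had at most 3 counts in every PBS tumor, Mmp8 and Timp4, set to the lower limit of their counting interval, these medians were 0.87, 0.77 and 1.89.

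Cisplatin alone changed 0 of 31 genes by edgeR (1 at an unadjusted p under 0.05, and 0 by DESeq2), where edgeR called 0% of all genes and DESeq2 0.0224%. Cisplatin+ICB changed 5 of 31, all higher, or 16.1% beside 6.1% of all genes (4.7% higher and 1.4% lower). These were Adamts15, Mmp8, Mmp12, Mmp19 and Mmp25. Mmp8 had 0 to 3 counts in the PBS tumors, so that its call is no support for this share. The count was not stable. Without Cisplatin+ICB replicate 1 it was 11 of 31, or 35.5% beside 35.3% of all genes in the same fit, and thus near the background. Without any of PBS replicates 1, 3 and 4 it was 0, and so was the share of all genes. It was 3 of 33 without PBS replicate 2 (9.09% beside 4.35% of all genes), 3 of 31 without Cisplatin+ICB replicate 4 (9.68% beside 1.5%), and 2 of 31 without Cisplatin+ICB replicate 2 or 5 (6.45% beside 1.4% and 2.04%).

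The tumors of the compared groups did not overlap in 9 of the 35 genes for ICB against PBS, where 37.4% of all genes had no overlap. They did not overlap in 17 genes for 5-FU (27.1% of all genes) and in 15 for 5-FU+ICB (25.5%). Of 31 genes, 1 had no overlap for Cisplatin (3.46%) and 2 for Cisplatin+ICB (8.13%). Between 5-FU+ICB and ICB there were 0 of 35 (2.33% of all genes), and between Cisplatin+ICB and ICB 0 of 31 (1.48%).

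**Figure D1:**
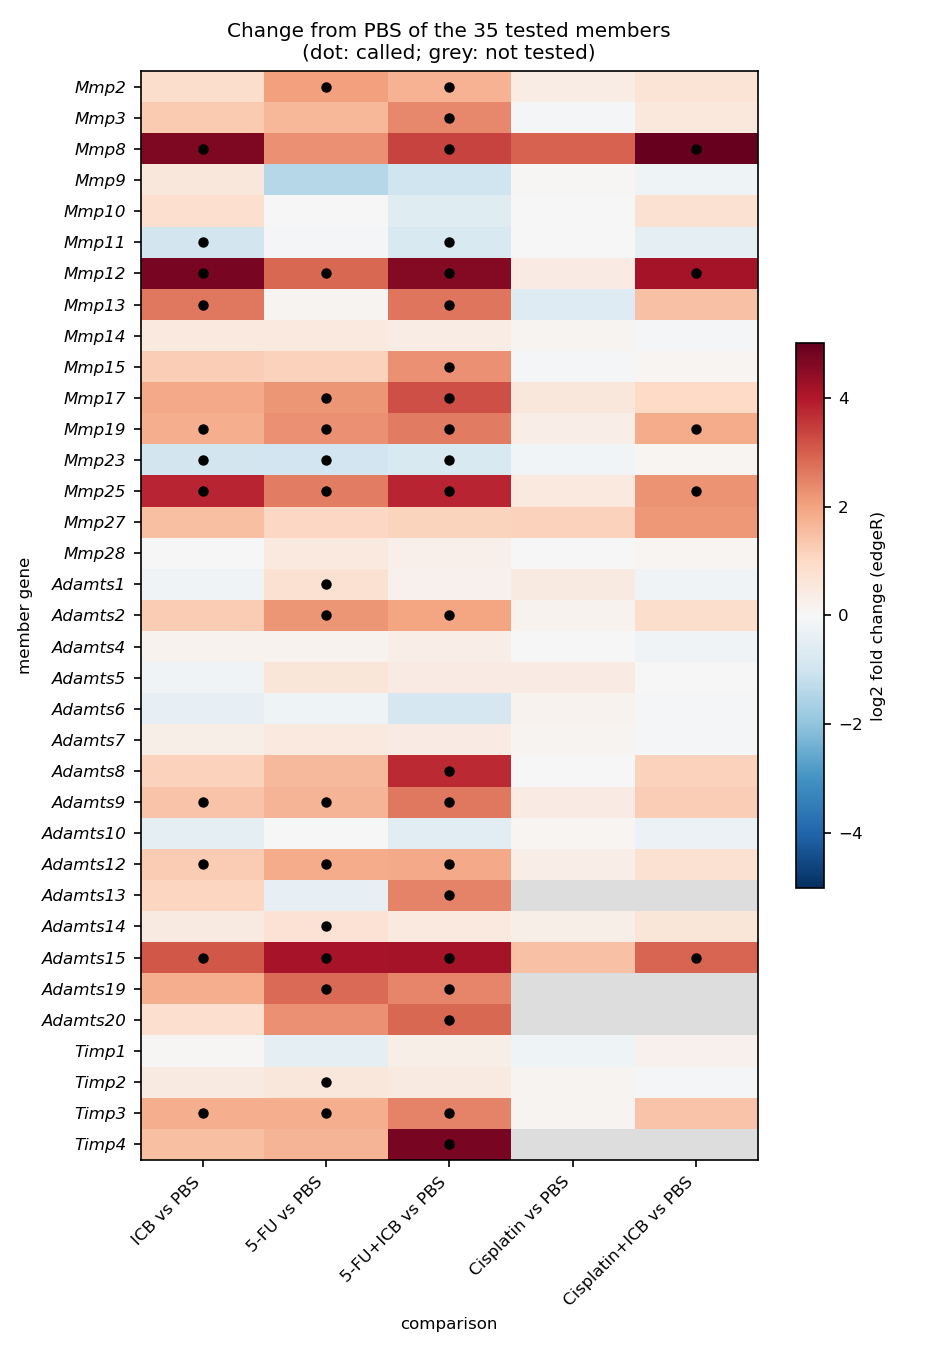
Log2 fold change against PBS (color, edgeR) of the 35 tested genes (rows) in 5 comparisons (columns), where a dot marks a called gene and grey a gene not tested. The 5-FU+ICB column holds 21 dots and the Cisplatin column none, and Mmp11 and Mmp23 are the genes called lower.

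Mmp12, Mmp25 and Mmp8, known from leukocytes, were among the genes that rose most with ICB, as was Adamts15, described below. Mmp9, which neutrophils and macrophages make as well, was not called with ICB and overlapped PBS. Mmp12, the macrophage metalloelastase (chr9:7344381-7369499), was at 5.43, 15.0, 4.52 and 6.67 CPM in the 4 PBS tumors and at 115, 504, 86.0, 81.0 and 261 CPM in the 5 ICB tumors. It was at 20.2, 18.5, 199, 7.23 and 45.4 CPM in 5-FU and at 111, 31.8, 281, 196 and 335 CPM in 5-FU+ICB. Every ICB and every 5-FU+ICB tumor lay above all PBS tumors, while in 5-FU replicate 4 overlapped PBS and replicate 3 stood far above the rest. Mmp12 rose by a log2 fold change of 4.74 ± 1.02 (SE, edgeR adjusted p = 0.00202) with ICB and 4.60 ± 1.01 (adjusted p = 0.00245) with 5-FU+ICB. With 5-FU alone it rose by 2.87 ± 0.93 (adjusted p = 0.0322), a call lost without any of 6 tumors (PBS replicates 1, 2, 3 and 4, 5-FU replicates 3 and 5) and at 1.52 without 5-FU replicate 3.

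In the Cisplatin tumors Mmp12 was at 18.0, 5.06, 9.42 and 8.91 CPM, a range that overlapped PBS. In Cisplatin+ICB it was at 57.9, 365, 13.0, 205 and 54.3 CPM, with only replicate 3 inside the PBS range. The log2 fold change of Cisplatin+ICB against PBS was 4.15 ± 0.89 (edgeR adjusted p = 0.0178). Without PBS replicates 1, 3 or 4 the adjusted p was 0.0808, 0.0763 and 0.0658.

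Mmp25, a membrane-anchored enzyme known from leukocytes (chr17:23628311-23645277), was at 4.30, 3.63, 6.25 and 6.67 CPM in PBS and at 44.4, 142, 62.0, 34.1 and 73.3 CPM in ICB. It was at 18.4, 16.5, 70.4, 11.7 and 32.6 CPM in 5-FU and at 95.7, 17.2, 109.5, 67.9 and 63.9 CPM in 5-FU+ICB. In all 3 treatments every tumor lay above the PBS tumors, and the log2 fold changes were 3.82 ± 0.62, 2.55 ± 0.59 and 3.81 ± 0.62 (SE, edgeR adjusted p = 0.000448, 0.00828 and 0.000601). These calls held with any 1 tumor left out. Mmp25 was at 14.2, 3.73, 4.69 and 6.66 CPM in Cisplatin and at 3.07, 31.7, 15.8, 43.1 and 29.4 CPM in Cisplatin+ICB, where replicate 1 was the lowest and lay under all PBS tumors. The log2 fold change with Cisplatin+ICB was 2.26 ± 0.61 (edgeR adjusted p = 0.0375), and the call was lost in 7 of 9 fits that left a tumor out (any PBS tumor, or Cisplatin+ICB replicates 2, 4 or 5), where it was 1.96 to 2.39.

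Mmp8, the neutrophil collagenase (chr9:7558456-7568485), had few reads, and its values are given after they were seen since it fell under the mean of 50 counts set for a full account. It had 1, 3, 0 and 2 counts in the PBS tumors, and was at 1.43, 2.48, 0.513, 0.913 and 1.78 CPM in ICB and at 0.901, 1.78, 1.35, 2.07 and 2.75 CPM in Cisplatin+ICB. It was at 0.0274, 0.0719, 0.490, 0.183 and 0.645 CPM in 5-FU, 0.718, 0.267, 0.302 and 0.444 CPM in Cisplatin and 0.819, 0.372, 0.891, 0.680 and 0.150 CPM in 5-FU+ICB. Only the 5-FU tumors overlapped PBS, whose highest value was 0.102 CPM. The ratio of the group's counts to those of PBS was 27.4 (95% counting interval 12.4 to 75.5) for ICB, 34.5 (95% counting interval 15.6 to 94.8) for Cisplatin+ICB and 11.1 (95% counting interval 4.88 to 31.1) for 5-FU+ICB. All 3 were called by edgeR (adjusted p = 0.00107, 0.00919 and 0.00634). For Cisplatin alone the ratio was 8.27 (95% counting interval 3.56 to 23.5), and although its tumors did not overlap PBS (3.46% of all genes did so) the adjusted p was 1.00. The Cisplatin+ICB call was lost without PBS replicates 1, 3 or 4, with an adjusted p of 0.0649, 0.0526 and 0.0572.

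Markers of leukocytes were also higher with ICB, and their part in the changes of these 3 enzymes was not tested. Ptprc, which marks all leukocytes, was at 74.9 to 105 CPM in PBS, 245 to 442 in ICB, 97.6 to 331 in 5-FU, 105 to 721 in 5-FU+ICB, 77.3 to 154 in Cisplatin and 118 to 361 in Cisplatin+ICB. The 6 macrophage markers summed to 1348 to 2057 CPM in PBS, 2799.9 to 7720.3 in ICB, 1809.5 to 6217 in 5-FU, 1459.7 to 6601 in 5-FU+ICB, 847 to 1911 in Cisplatin and 1724 to 3129.6 in Cisplatin+ICB, so that 5-FU, 5-FU+ICB, Cisplatin and Cisplatin+ICB overlapped PBS. Of the 6, 6 were called higher with ICB, 2 with 5-FU, 4 with 5-FU+ICB and 1 with Cisplatin+ICB. The 5-FU tumor with the highest Mmp12, replicate 3, also had the highest macrophage sum of its group, 6217 CPM, where the other 4 had 1809.5 to 3164 CPM. In ICB, 5-FU+ICB and Cisplatin+ICB the tumor with the most Mmp12 did not have the highest sum of its group, while the tumor with the least had the lowest. ICB replicate 3 had the highest sum of all tumors, 7720.3 CPM, with Mmp12 at 86.0 CPM. The 8 neutrophil markers summed to 9.57 to 18.6 CPM in PBS, 59.5 to 166 in ICB, 35.3 to 107 in Cisplatin+ICB, 15.4 to 64.9 in 5-FU, 8.43 to 72.5 in 5-FU+ICB and 16.9 to 33.7 in Cisplatin, the last 3 overlapping PBS, while Ly6g, Mpo and Elane were at most 0.253 CPM in any tumor. Of 5 neutrophil markers tested, 2 were called higher with ICB, 4 with Cisplatin+ICB and 1 each with 5-FU and 5-FU+ICB. Mmp8 did not always go with the markers. In Cisplatin it lay above PBS while the neutrophil sum overlapped PBS. The tumor with the highest Ptprc of the 28, 5-FU+ICB replicate 5, had the least Mmp8 of its group. Of 4 monocyte markers, 2 were called higher with each of ICB, 5-FU+ICB and Cisplatin+ICB, and 0 with 5-FU. The 5 T cell markers summed to 19.5 to 25.5 CPM in PBS, 131 to 512 in ICB, 28.5 to 311 in 5-FU, 35.6 to 1062 in 5-FU+ICB, 10.6 to 34.2 in Cisplatin and 18.2 to 282 in Cisplatin+ICB, and 5 of 5 were called higher with ICB, 3 with 5-FU, 5 with 5-FU+ICB and 4 with Cisplatin+ICB. Counts of called markers, here and below, are to be read against the shares of all genes called given above. In RNA from whole tumors, more cells of a type and more RNA per cell cannot be told apart.

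**Figure D2:**
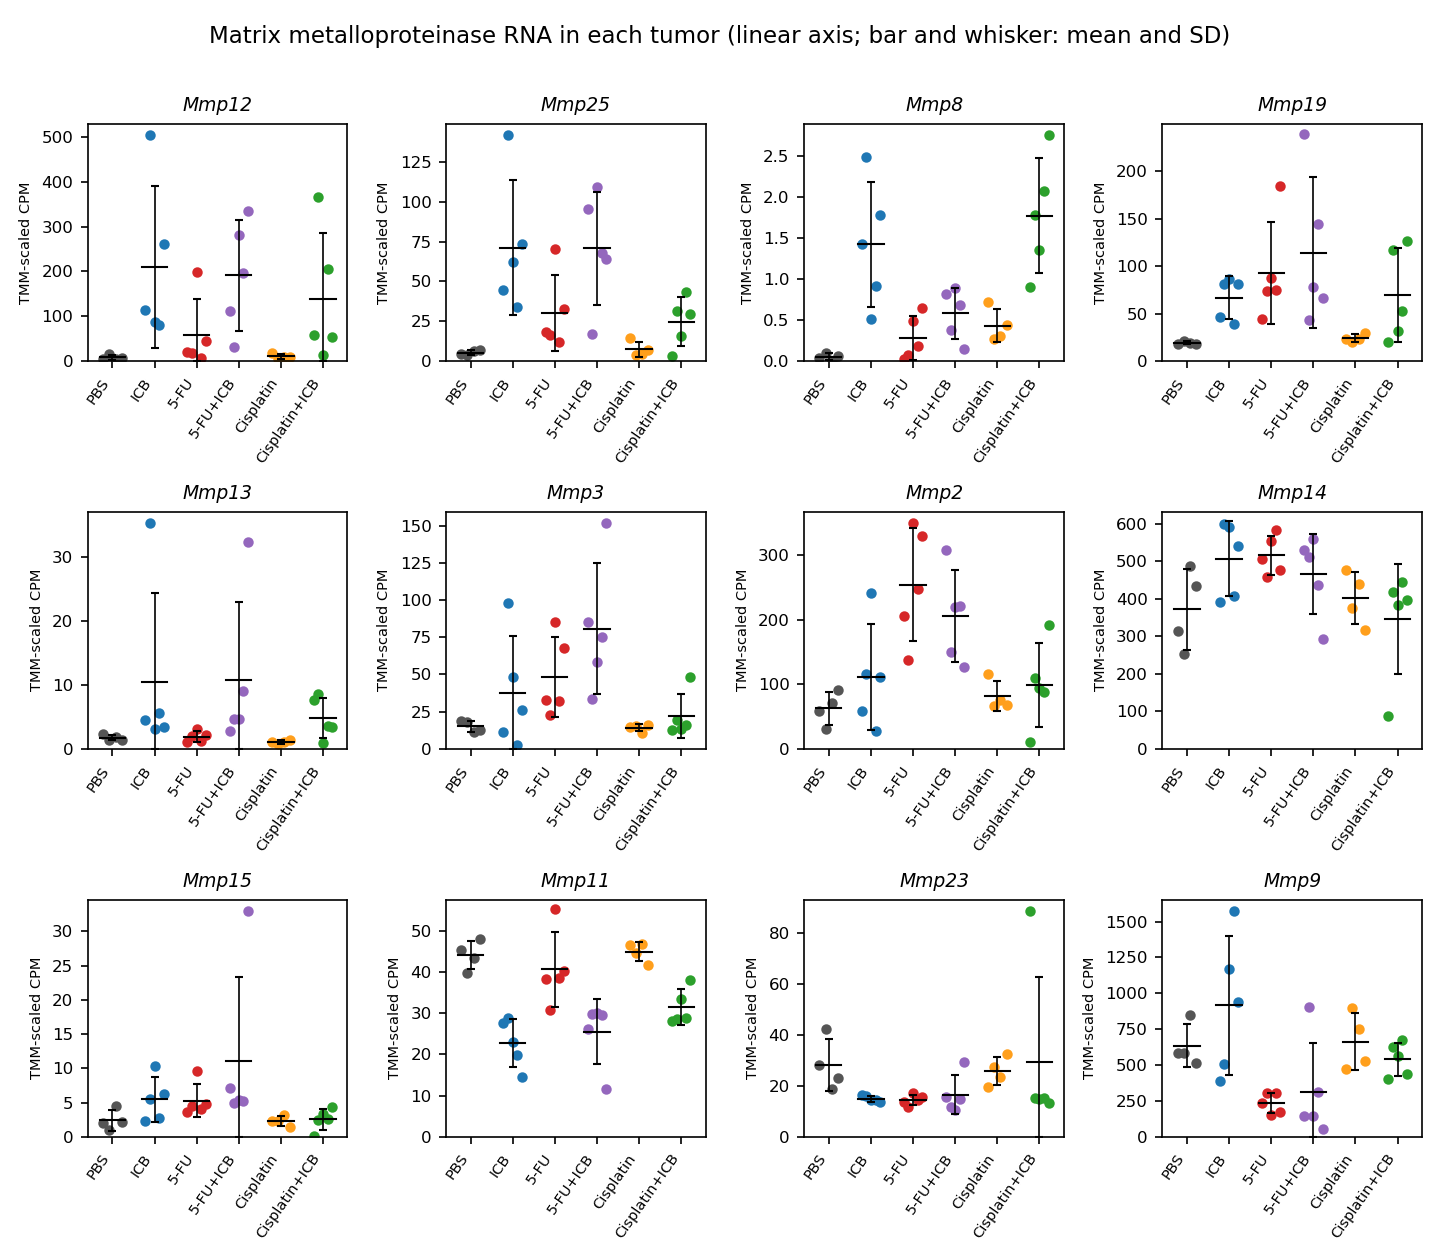
TMM-scaled CPM (linear axis) of 12 Mmp genes in each of 28 tumors (points) by treatment, with the mean and SD as bar and whisker (the lower whisker ends at 0 at most). Mmp12, Mmp25 and Mmp8 lie near 0 in PBS and far higher in ICB, Mmp2 is highest in the 5-FU groups, and single tumors carry the high means of Mmp13, Mmp15 and Mmp23.

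Mmp19, which degrades basement membrane proteins (chr10:128790910-128800824), was at 18.4, 21.5, 18.7 and 18.4 CPM in PBS. It was at 45.9, 81.4, 86.7, 38.7 and 80.7 CPM in ICB, 43.8, 73.4, 87.1, 74.4 and 184 CPM in 5-FU and 239, 43.4, 77.5, 144 and 66.6 CPM in 5-FU+ICB, with no overlap with PBS in any of the 3. It rose in each, by log2 fold changes of 1.81 ± 0.47, 2.28 ± 0.47 and 2.59 ± 0.48 (SE, edgeR adjusted p = 0.00571, 0.00574 and 0.00106), and the calls held with any 1 tumor left out. In Cisplatin it was at 23.6, 20.3, 23.4 and 29.7 CPM and in Cisplatin+ICB at 19.8, 117, 31.7, 52.9 and 127 CPM, where it rose by 1.87 ± 0.44 (edgeR adjusted p = 0.0245). That call was lost without PBS replicates 1, 3 or 4 or Cisplatin+ICB replicates 2 or 5 (adjusted p = 0.0937, 0.0851, 0.0799, 0.0691 and 0.0623). Mmp19 shares 21.6% of its 31-base sequences with Tmem198b on the other strand, so that reads of the 2 genes may have been split between them.

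The stromelysin Mmp3, which activates other proforms, and the collagenase Mmp13 belong to the chromosome 9 cluster, and both rose with 5-FU+ICB. Mmp3 (chr9:7445822-7455975) was at 19.0, 17.9, 11.6 and 12.9 CPM in PBS, 32.6, 22.9, 85.4, 31.9 and 68.0 CPM in 5-FU and 85.1, 33.7, 58.5, 74.8 and 152 CPM in 5-FU+ICB. Both treated groups lay above PBS without overlap, and the log2 fold change was 2.42 ± 0.73 (SE, edgeR adjusted p = 0.0136) with 5-FU+ICB and 1.65 ± 0.71 (adjusted p = 0.0904), not called, with 5-FU. Without 5-FU+ICB replicate 5 the change with 5-FU+ICB was 2.05 and still called. In ICB it ranged from the lowest to the second highest of all tumors, at 11.6, 98.2, 48.6, 2.80 and 26.0 CPM, and no change was called (adjusted p = 0.137). It was at 15.0, 15.7, 10.9 and 15.8 CPM in Cisplatin and at 12.9, 19.1, 13.6, 16.3 and 48.1 CPM in Cisplatin+ICB, both overlapping PBS. Mmp3 shares 11.4% of its 31-base sequences with Mmp10, which ranged from 0 to 2.11 CPM over all tumors.

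Mmp13 (chr9:7272514-7283331) was at 2.27, 1.39, 1.88 and 1.43 CPM in PBS, 4.53, 35.3, 3.04, 5.60 and 3.48 CPM in ICB and 2.86, 4.74, 4.74, 9.06 and 32.4 CPM in 5-FU+ICB. In each of the 2 treated groups 1 tumor, ICB replicate 2 and 5-FU+ICB replicate 5, was several times above the others. Mmp13 rose by a log2 fold change of 2.64 ± 0.82 (SE, edgeR adjusted p = 0.0168) with ICB and 2.66 ± 0.82 (adjusted p = 0.0152) with 5-FU+ICB, and neither call held without that tumor (1.33 and 1.66, adjusted p = 0.102 and 0.0641). It was at 1.01, 2.05, 3.07, 1.22 and 2.15 CPM in 5-FU, within or near the PBS range, at 1.03, 0.800, 1.14 and 1.45 CPM in Cisplatin and at 7.63, 8.60, 0.883, 3.55 and 3.50 CPM in Cisplatin+ICB. Of 8 immediate-early genes whose proteins form or join AP-1, 4 were called higher with 5-FU, 3 with 5-FU+ICB, 1 with ICB and 1 with Cisplatin+ICB. With 5-FU these were Fosb (6.27), Atf3 (2.70), Fos (2.11) and Jund (1.15), as log2 fold changes. With ICB it was Atf3 alone, at 2.93. Whether these bear on Mmp3, Mmp12 or Mmp13 was not tested. The 2 tumors with high Mmp13 also had the highest sums of the keratinocyte and skin markers of the 28 tumors, 432 CPM in ICB replicate 2 and 20.6 CPM in 5-FU+ICB replicate 5. The other ICB tumors had 0.680 to 9.59 CPM, the other 5-FU+ICB tumors 0.682 to 13.8 and PBS 1.01 to 5.51. Of 3 such markers tested 0 were called, and their part in the Mmp13 values was not tested.

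A second set was called with 5-FU or its combination and, by edgeR, in no comparison of a Cisplatin group in the full data. Mmp2, gelatinase A (chr8:92827291-92853420), was at 58.5, 30.9, 70.6 and 91.1 CPM in PBS, 206, 138, 350.2, 247 and 329 CPM in 5-FU and 308, 149, 220.0, 221 and 127 CPM in 5-FU+ICB. Every tumor of both 5-FU groups lay above every PBS tumor, and the log2 fold changes were 2.05 ± 0.48 and 1.75 ± 0.48 (SE, edgeR adjusted p = 0.00904 and 0.00790), kept with any 1 tumor left out. Mmp2 was at 59.2, 116, 241, 28.1 and 111 CPM in ICB, a wide range on both sides of PBS that was not called (adjusted p = 0.140). It was at 115, 67.1, 75.6 and 67.7 CPM in Cisplatin and at 9.96, 109, 94.1, 87.5 and 192 CPM in Cisplatin+ICB. In that last group replicate 1 was the lowest of all 28 tumors.

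Adamts2 and Adamts14 trim the propeptides of fibrillar procollagens. Adamts2 (chr11:50602084-50807573) was at 21.1, 6.54, 23.8 and 33.6 CPM in PBS, 71.5, 35.3, 104, 102 and 163 CPM in 5-FU and 138, 40.3, 70.9, 90.6 and 60.5 CPM in 5-FU+ICB, again with no overlap. It rose by 2.20 ± 0.59 with 5-FU and by 1.97 ± 0.59 with 5-FU+ICB (log2 fold change ± SE, edgeR adjusted p = 0.0149 and 0.0125), the first being lost without PBS replicate 2 (1.91, adjusted p = 0.0600). It was at 23.5, 65.5, 98.2, 10.7 and 46.5 CPM in ICB (adjusted p = 0.0853), 32.3, 23.2, 22.9 and 18.1 CPM in Cisplatin and 3.76, 43.7, 30.4, 35.8 and 76.9 CPM in Cisplatin+ICB. As with Mmp2, Cisplatin+ICB replicate 1 was the lowest tumor of the series.

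Adamts14 (chr10:61197112-61273438) was at 14.4, 10.3, 20.3 and 19.4 CPM in PBS and 30.6, 24.6, 22.7, 27.8 and 26.7 CPM in 5-FU, where it rose by 0.74 ± 0.25 (log2 fold change ± SE, edgeR adjusted p = 0.0371). The call was lost without PBS replicates 1 or 2 or 5-FU replicates 1, 4 or 5, with values of 0.60 to 0.73. It was at 22.6, 22.1, 21.3, 25.9 and 15.8 CPM in ICB, 22.96, 31.4, 18.7, 28.0 and 10.2 CPM in 5-FU+ICB, 27.2, 14.9, 22.8 and 14.1 CPM in Cisplatin and 6.15, 27.7, 30.9, 27.8 and 30.0 CPM in Cisplatin+ICB, and no change was called in these groups.

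Adamts12, an enzyme that cleaves cartilage oligomeric matrix protein (chr15:11064790-11349231), was at 3.81, 2.64, 6.32 and 6.14 CPM in PBS. It was at 15.8, 7.40, 14.6, 19.2 and 26.2 CPM in 5-FU and 20.6, 14.8, 11.4, 20.2 and 17.7 CPM in 5-FU+ICB, above PBS in every tumor, and rose by 1.85 ± 0.43 and 1.89 ± 0.43 (log2 fold change ± SE, edgeR adjusted p = 0.00828 and 0.00277). In ICB it was at 6.44, 16.9, 18.4, 4.08 and 9.71 CPM, overlapping PBS, and rose by 1.28 ± 0.42 (adjusted p = 0.0211), a call lost without PBS replicates 1 or 2 or ICB replicates 2 or 3 (1.03 to 1.20). It was at 8.59, 5.10, 5.80 and 4.23 CPM in Cisplatin and 1.48, 11.4, 7.33, 8.78 and 10.7 CPM in Cisplatin+ICB.

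With 5-FU alone fibroblast markers were higher along with these genes, and their part was not tested. The 8 markers summed to 4857 to 12007 CPM in PBS, 13264 to 20987 in 5-FU, 5138 to 10013 in ICB, 6970.2 to 12577 in Cisplatin, 5409 to 16499.6 in 5-FU+ICB and 2467 to 9421 in Cisplatin+ICB. With 5-FU 4 of 8 were called higher, with 5-FU+ICB 2 of 8 and with ICB, where Adamts12 was called, 0 of 8. The sums of 5-FU+ICB overlapped those of PBS. Its tumor with the highest sum, replicate 2, had the lowest Adamts2 of the group (40.3 CPM), with Mmp2 at 149 CPM. Cisplatin+ICB replicate 1 had the lowest sum of all 28 tumors, 2467 CPM. The skeletal muscle sums given above were also over all PBS tumors in 4 of 5 tumors of either 5-FU group, and their part in Mmp2, Adamts2 and Mmp3 was not tested. Of 4 proteoglycan genes, Dcn (1.57) and Hspg2 (1.34, both log2 fold changes) were called higher with 5-FU, Dcn with 5-FU+ICB (2.04), and 0 of 4 with ICB or Cisplatin+ICB.

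Mmp14, the membrane-type enzyme that activates pro-Mmp2 on the cell surface together with Timp2, was not called in the full data by edgeR. It was at 254 to 489 CPM in PBS, 392 to 600.1 in ICB, 459 to 584 in 5-FU, 294 to 560.3 in 5-FU+ICB, 318 to 476 in Cisplatin and 88.9 to 444 in Cisplatin+ICB. The log2 fold change was 0.49 with ICB (95% interval 0.07 to 0.91, edgeR adjusted p = 0.0541) and 0.50 with 5-FU (95% interval 0.08 to 0.92, adjusted p = 0.0691). Both were called higher by DESeq2, and by edgeR without PBS replicate 3. The membrane-type 2 enzyme Mmp15 (chr8:95352268-95375080) was at 2.03, 0.983, 4.55 and 2.09 CPM in PBS and 7.07, 4.96, 5.39, 5.16 and 33.0 CPM in 5-FU+ICB, where it rose by 2.27 ± 0.64 (log2 fold change ± SE, edgeR adjusted p = 0.00924). Without 5-FU+ICB replicate 5 it was still called, at 1.28. Mmp15 was at 2.35, 5.59, 10.4, 2.74 and 6.27 CPM in ICB, 3.59, 4.49, 9.57, 4.00 and 4.73 CPM in 5-FU, 2.28, 2.36, 3.12 and 1.36 CPM in Cisplatin and 0.159, 2.39, 3.30, 2.53 and 4.33 CPM in Cisplatin+ICB. Mmp17, a further membrane-anchored enzyme, was low at 0.136 to 0.232 CPM in PBS and was called higher with 5-FU (2.20) and 5-FU+ICB (3.21, log2 fold changes), the first being lost without any PBS tumor or 5-FU replicates 3 or 5 (1.45 to 2.30). It was at 1.19, 0.279, 1.38, 0.835 and 5.04 CPM in 5-FU+ICB, and without replicate 5 it was still called there, at 2.29.

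The 5 endothelial markers summed to 69.5 to 129.8 CPM in PBS, 134 to 272 in ICB, 133 to 305 in 5-FU, 158 to 638 in 5-FU+ICB, 75.6 to 105 in Cisplatin and 34.97 to 165 in Cisplatin+ICB. Every tumor of ICB, 5-FU and 5-FU+ICB lay above all PBS tumors, and 2 of 5 markers were called higher with ICB, 2 with 5-FU and 5 with 5-FU+ICB. The highest sum of all 28 tumors was that of 5-FU+ICB replicate 5, which also had the most Mmp15 and Mmp17. That tumor had the highest Ptprc (721 CPM), T cell sum (1062 CPM) and skeletal muscle sum (4350.0 CPM) of the 28 as well. The part of endothelial or of these other cells in Mmp15, Mmp17, Adamts9 and Timp3 was not tested.

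Mmp9, gelatinase B (chr2:164940780-164955850), was described after its values were seen, since it had the highest level per kb of the proteinases in PBS and was called in no comparison of the full data by edgeR. It was at 585, 585, 852 and 512 CPM in PBS and at 234, 303, 152, 307 and 176 CPM in 5-FU, so that the groups did not overlap. The log2 fold change was -1.42 ± 0.56 (SE, 95% interval -2.62 to -0.23) with an edgeR adjusted p of 0.0680, and DESeq2 called it lower. In 5-FU+ICB it was at 143, 901, 146, 314 and 55.4 CPM, where replicate 2 lay above all PBS tumors and the other 4 below them. It was at 389, 511, 1169, 1574 and 941 CPM in ICB, 471, 898, 753 and 526 CPM in Cisplatin and 403, 623, 563, 674 and 439 CPM in Cisplatin+ICB. Without 5-FU+ICB replicate 2 Mmp9 was called lower in 5-FU+ICB than in PBS, and was the 1 gene of the 35 called between 5-FU+ICB and ICB, again lower with 5-FU+ICB.

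Mmp9 is a known product of osteoclasts, which use it to resorb bone, as well as of neutrophils and macrophages. The 7 osteoclast markers (Acp5, Ctsk, Calcr, Ocstamp, Dcstamp, Oscar and Atp6v0d2) were present in these tumors and 7 of 7 were called lower with 5-FU, with a median log2 fold change of -2.64. With 5-FU+ICB 3 of 7 were called lower, and with ICB 1, Dcstamp, higher. Their sum was 1281 to 2238 CPM in PBS, 195 to 331 in 5-FU, 599 to 2021 in ICB, 683 to 2309.8 in Cisplatin, 167 to 814 in 5-FU+ICB and 693 to 3345 in Cisplatin+ICB. In 5-FU+ICB the tumor with the highest Mmp9, replicate 2, had the highest sum (814 CPM, the others at most 380.4). In ICB the 3 tumors with the highest Mmp9, replicates 3, 4 and 5, had the 3 highest sums. Other tumors differed from this. Cisplatin+ICB replicate 1 had the highest sum of all tumors and the lowest Mmp9 of its group. In PBS replicate 3 had the highest Mmp9 with the second lowest sum (1571 CPM), and replicate 2 had the highest sum (2238 CPM). The neutrophil sum was 15.4 to 64.9 CPM in 5-FU against 9.57 to 18.6 in PBS, with none of its markers called lower. The part of osteoclast-like cells in the Mmp9 values was not tested.

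**Figure D3:**
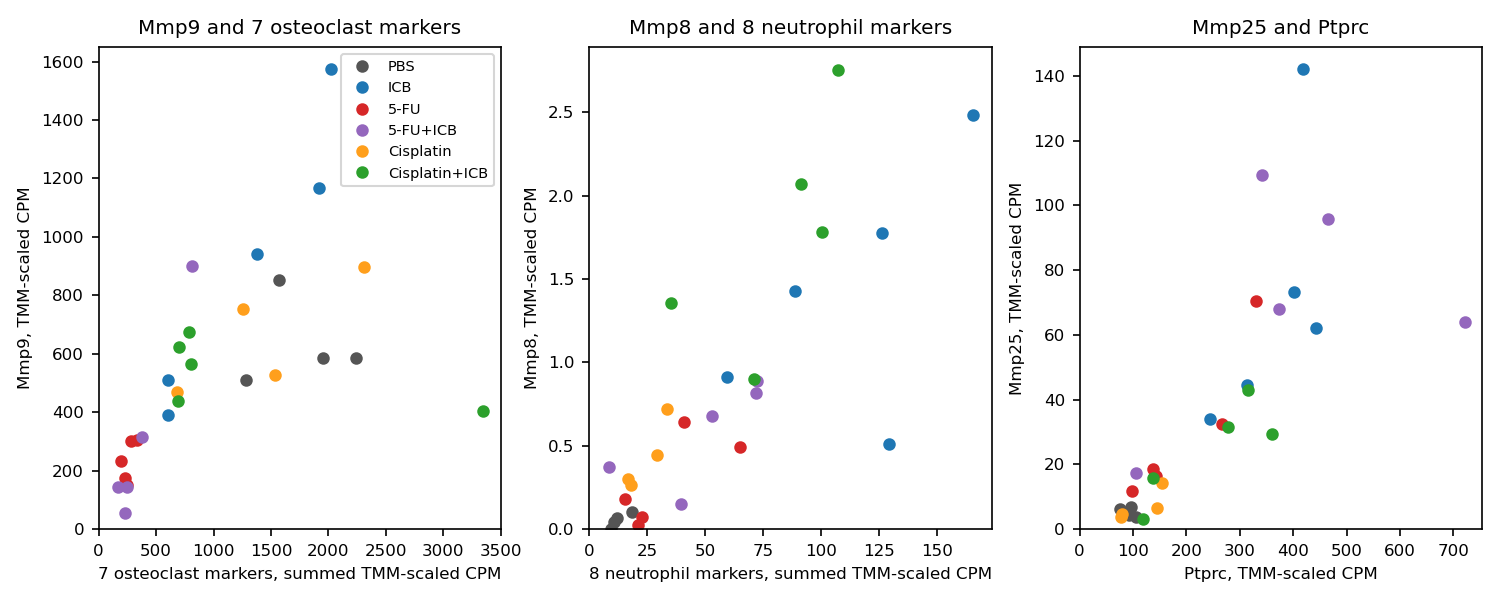
Level of Mmp9, Mmp8 and Mmp25 (vertical axes, TMM-scaled CPM) in each of 28 tumors (points, colored by treatment) beside the summed level of 7 osteoclast markers, 8 neutrophil markers and Ptprc (horizontal axes, TMM-scaled CPM). All 5-FU tumors sit at the lower left of the Mmp9 panel, and 1 Cisplatin+ICB tumor, replicate 1, lies far to the right of it.

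The genes called lower were Mmp11 and Mmp23. Mmp11, stromelysin-3, a stromal enzyme that is activated inside the cell (chr10:75923222-75936496), was at 45.2, 39.8, 43.3 and 48.0 CPM in PBS, 27.5, 28.8, 23.1, 19.9 and 14.5 CPM in ICB and 26.2, 29.8, 30.0, 29.6 and 11.6 CPM in 5-FU+ICB. It fell in both, with log2 fold changes of -0.92 ± 0.25 and -0.77 ± 0.25 (SE, edgeR adjusted p = 0.00745 and 0.0184), and the calls held with any 1 tumor left out. In 5-FU alone it was at 38.2, 30.7, 55.3, 38.4 and 40.2 CPM and in Cisplatin at 46.4, 44.5, 46.8 and 41.8 CPM, both overlapping PBS. In Cisplatin+ICB it was at 28.1, 28.6, 33.5, 28.7 and 38.1 CPM, below all PBS and all Cisplatin tumors (groups without overlap made up 8.13% and 3.34% of all genes). The change was not called (-0.48, adjusted p = 0.109). Every tumor that received ICB thus had less Mmp11 than every PBS and every Cisplatin tumor.

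Mmp23, a membrane-tethered enzyme without the usual propeptide switch (chr4:155650655-155653384), was at 28.2, 42.2, 18.6 and 23.2 CPM in PBS, 16.3, 16.1, 14.4, 14.3 and 13.7 CPM in ICB and 13.6, 11.6, 17.0, 14.3 and 15.6 CPM in 5-FU. It fell, with changes of -0.90 ± 0.28 with ICB and -0.97 ± 0.28 with 5-FU (log2 fold change ± SE, edgeR adjusted p = 0.0171 and 0.0205). The PBS level rests on replicate 2, since without it the changes were -0.60 and -0.67 (adjusted p = 0.0960 and 0.111), and the 5-FU call was also lost without PBS replicate 1 (-0.96). In 5-FU+ICB it was at 15.6, 11.6, 10.3, 15.0 and 29.6 CPM and fell, with a change of -0.77 ± 0.28 (adjusted p = 0.0354), a call kept in 3 of 9 fits with a tumor left out and lost without PBS replicates 1 or 2 or 5-FU+ICB replicates 1, 2, 3 or 4 (-0.76 to -0.47). It was at 19.5, 27.3, 23.5 and 32.4 CPM in Cisplatin and at 88.7, 15.1, 15.0, 15.3 and 13.2 CPM in Cisplatin+ICB. There replicate 1 was the highest of all 28 tumors, and without it Mmp23 was among the 11 genes called against PBS, lower in Cisplatin+ICB.

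Among the proteoglycan-cleaving ADAMTS enzymes, Adamts15 (chr9:30899155-30922452) changed most. It was at 1.18, 1.32, 1.26 and 2.99 CPM in PBS, 20.1, 10.7, 46.9, 22.9 and 45.3 CPM in 5-FU and 59.9, 7.59, 15.2, 44.2 and 21.2 CPM in 5-FU+ICB, so that all treated tumors lay above PBS. It rose by 4.13 ± 0.80 with 5-FU and 4.17 ± 0.80 with 5-FU+ICB (log2 fold change ± SE, edgeR adjusted p = 0.00429 and 0.00126). In ICB it was at 6.44, 14.1, 35.3, 1.74 and 15.0 CPM, with replicate 4 inside the PBS range, and rose by 3.12 ± 0.77 (adjusted p = 0.00442). These 3 calls held with any 1 tumor left out. It was at 10.1, 1.79, 2.95 and 3.79 CPM in Cisplatin and 1.38, 16.1, 8.01, 10.7 and 27.1 CPM in Cisplatin+ICB, where it rose by 2.92 ± 0.84 (adjusted p = 0.0473), lost without any PBS tumor or Cisplatin+ICB replicates 2, 4 or 5 (2.43 to 3.34).

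Adamts9, which cleaves aggrecan and versican (chr6:92772699-92943492), was at 1.66, 1.25, 7.48 and 4.45 CPM in PBS, 6.13, 10.9, 10.4, 8.52 and 12.0 CPM in ICB, 10.1, 10.1, 10.4, 11.6 and 16.2 CPM in 5-FU and 26.3, 21.1, 11.3, 17.4 and 33.7 CPM in 5-FU+ICB. It rose by 1.44 ± 0.41, 1.71 ± 0.41 and 2.63 ± 0.43 (log2 fold change ± SE, edgeR adjusted p = 0.00998, 0.00958 and 0.000564), kept with any 1 tumor left out. Of these 3 groups only ICB overlapped PBS, through 1 tumor on each side. It was at 5.99, 4.49, 6.07 and 3.02 CPM in Cisplatin and 1.11, 9.21, 10.5, 6.24 and 15.7 CPM in Cisplatin+ICB, and 8.84% of its 31-base sequences are shared with A730049H05Rik on the other strand. In the same 3 groups every tumor was above all PBS tumors in the endothelial sum, whose part was not tested.

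Adamts1, another versican-cleaving enzyme, was at 39.0, 27.5, 82.7 and 70.7 CPM in PBS and 72.5, 84.8, 75.5, 97.9 and 125 CPM in 5-FU. It rose by 0.77 ± 0.27 (log2 fold change ± SE, edgeR adjusted p = 0.0470), but the groups overlapped and the call was lost without PBS replicates 1 or 2 or 5-FU replicates 2, 3, 4 or 5 (0.56 to 0.83). The aggrecanases Adamts4 and Adamts5 were well measured and not called by edgeR, with log2 fold changes with 5-FU of 0.17 (95% interval -0.29 to 0.62) and 0.59 (0.10 to 1.08), the latter called higher by DESeq2. Adamts6, Adamts7 and Adamts10 were not called either, and ranged over all tumors from 3.59 to 29.0, 0.901 to 16.1 and 11.1 to 38.2 CPM. Mmp10, Mmp27 and Mmp28 were also tested and not called by edgeR (DESeq2 called Mmp27 higher with Cisplatin+ICB), and ranged from 0 to 2.11, 0.0361 to 4.24 and 1.06 to 4.46 CPM. The 6 genes under the filter reached at most 0.999 (Adamts3), 0.527 (Adamts16), 0.899 (Adamts17), 0.580 (Adamts18), 0.699 (Mmp7) and 0.749 CPM (Mmp16) in any tumor. DESeq2, which was not limited to genes past the filter, called Adamts3 higher with 5-FU+ICB, with a count ratio to PBS of 16.4 (95% counting interval 4.26 to 140.4) from 40 counts against 2. Of the 40 counts, 20 came from replicate 5 and 12 from replicate 4, so that the ratio rests mostly on these tumors.

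Adamts8, a neighbor of Adamts15 20109 bases away from it on chromosome 9, was called higher with 5-FU+ICB alone (3.74, edgeR adjusted p = 0.00743). It was at 1.64, 0.186, 0.810, 1.45 and 7.94 CPM there, against at most 0.284 CPM in PBS, with replicate 2 inside the PBS range, and at 2.51 on the log2 scale it was still called without replicate 5. Adamts13, the von Willebrand factor protease, Adamts19 and Adamts20 were also called higher with 5-FU+ICB, with 0 to 6 counts in the PBS tumors (2.48, 2.43 and 2.89), and Adamts19 with 5-FU (2.82, lost without 5-FU replicate 5 at 1.99). All 3 had a mean of at most 10.8 counts over the tumors of the 5-FU matrix and overlapped PBS with 5-FU+ICB. Adamts13 was lost without PBS replicates 1 or 3 (2.32 and 2.25), Adamts19 without PBS replicates 3 or 4 or 5-FU+ICB replicate 1 (1.75 to 2.16), and Adamts20 without any PBS tumor or 5-FU+ICB replicates 4 or 5 (1.60 to 3.21). In 5-FU+ICB Adamts13 was at 0.223, 0.124, 0.203, 1.08 and 2.10 CPM, so that replicates 4 and 5 carried its mean. It passed the filter in 7 of the 9 fits with a tumor left out.

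**Figure D4:**
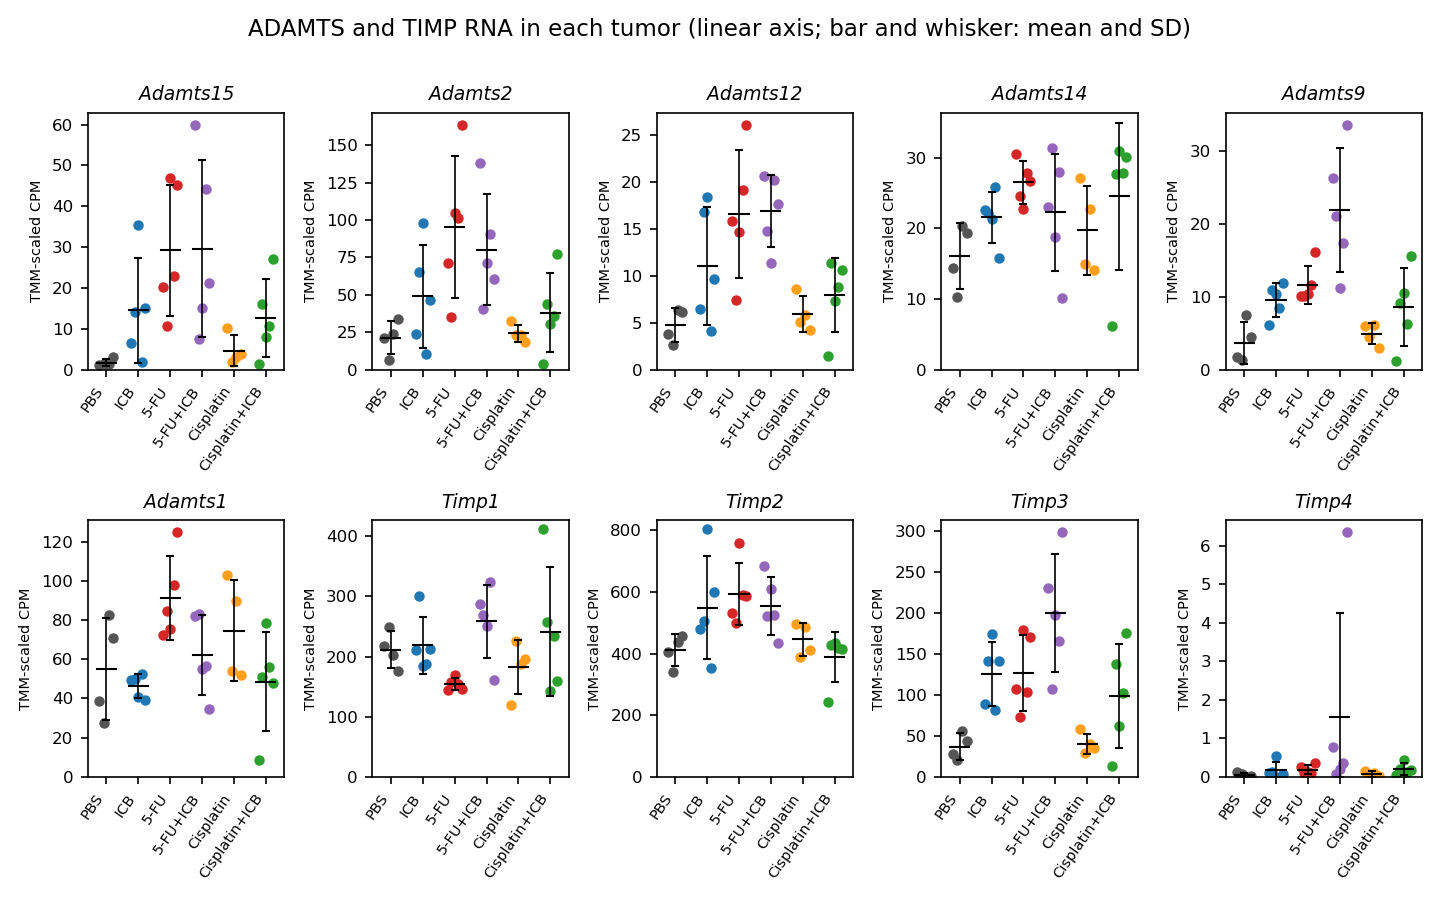
TMM-scaled CPM (linear axis) of 6 Adamts and the 4 Timp genes in each of 28 tumors (points) by treatment, with the mean and SD as bar and whisker (the lower whisker ends at 0 at most). Adamts15, Adamts2, Adamts12 and Timp3 are higher in the 5-FU groups than in PBS, and the Timp4 mean of 5-FU+ICB rests on 1 tumor at 6.34 CPM.

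Of the inhibitors, Timp3 was called most often. Timp3 binds to the extracellular matrix and inhibits ADAMTS and ADAM enzymes as well as metalloproteinases (chr10:86300372-86349506). It was at 28.2, 20.0, 56.0 and 43.4 CPM in PBS, 88.5, 142, 174, 81.1 and 141 CPM in ICB, 107, 72.7, 179, 103 and 171 CPM in 5-FU and 230.3, 107, 197, 165 and 298 CPM in 5-FU+ICB, with no overlap between PBS and any of the 3. It rose by 1.82 ± 0.35, 1.82 ± 0.35 and 2.49 ± 0.37 (log2 fold change ± SE, edgeR adjusted p = 0.00117, 0.00440 and 0.000294), kept with any 1 tumor left out. It was at 57.7, 29.0, 39.6 and 34.9 CPM in Cisplatin and 13.2, 138, 62.2, 102 and 175 CPM in Cisplatin+ICB, where replicate 1 lay below and the other 4 above all PBS tumors. The change of 1.43 ± 0.51 there was not called (adjusted p = 0.100) but was among the 11 calls without replicate 1. Timp3 overlaps Syn3 on the other strand and shares 21.1% of its 31-base sequences with it. Timp3 was highest in 5-FU+ICB replicate 5, the tumor with the highest endothelial, T cell and skeletal muscle sums and the highest Ptprc. The part of any of these cells was not tested.

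Timp1, the inducible inhibitor (chrX:20870166-20874735), was called by edgeR in no comparison of the full data. It was at 217, 249.6, 203 and 175 CPM in PBS and 145, 158, 169, 154 and 146 CPM in 5-FU, where every tumor lay below PBS (-0.45, edgeR adjusted p = 0.0856). It was at 287, 269, 251, 324 and 162 CPM in 5-FU+ICB, 210.1, 301, 184, 188 and 212 CPM in ICB, 119, 226, 188 and 196 CPM in Cisplatin and 412, 258, 142, 235 and 159 CPM in Cisplatin+ICB. Of the 5 tumors given 5-FU+ICB, 4 had more Timp1 than any PBS tumor, and replicate 5 had less than any.

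Timp2, which both inhibits Mmp2 and takes part in its activation (chr11:118301069-118355740), was at 404, 339.7, 438 and 458 CPM in PBS and 533, 500.3, 758, 589 and 586 CPM in 5-FU. It rose by 0.55 ± 0.20 (log2 fold change ± SE, edgeR adjusted p = 0.0483) without overlap, but the call was kept in 1 of 9 fits with a tumor left out, the one without 5-FU replicate 2, and the others gave 0.44 to 0.59. It was at 481, 505, 804, 354 and 600.2 CPM in ICB, 684, 521, 608, 524 and 434 CPM in 5-FU+ICB, 496, 388, 486 and 413 CPM in Cisplatin and 243, 428, 433, 417 and 416 CPM in Cisplatin+ICB. Timp4 (chr6:115241892-115252205) had 3, 2, 0 and 1 counts in the PBS tumors and was at 0.781, 0.0620, 0.203, 0.371 and 6.34 CPM in 5-FU+ICB, a ratio of 22.9 (95% counting interval 10.3 to 63.2) to PBS (edgeR adjusted p = 0.00890). Most of it came from replicate 5, without which the fitted log2 fold change went from 4.73 to 2.62 and was still called. It was at 0.102, 0.114, 0.552, 0 and 0.0755 CPM in ICB, 0.246, 0.108, 0.134, 0.0916 and 0.358 CPM in 5-FU, 0.156, 0, 0.101 and 0.0296 CPM in Cisplatin and 0.0530, 0.191, 0.442, 0.124 and 0.186 CPM in Cisplatin+ICB.

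The combinations were set against their parts. Between 5-FU+ICB and ICB edgeR called 0 of 35 genes (7 at an unadjusted p under 0.05, 0 by DESeq2), where edgeR called 0.229% of all genes and DESeq2 1.7%. Without 5-FU+ICB replicate 2 it called 1, Mmp9, or 2.86% beside 0.224% of all genes. Between 5-FU+ICB and 5-FU it called 0 (11 at an unadjusted p under 0.05) with 0.0112% of all genes called, and DESeq2 called 3, or 8.57% beside 2.92%. EdgeR called 6 without 5-FU+ICB replicate 2, or 17.1% beside 10.9% of all genes, and 3 without 5-FU replicate 3, or 8.57% beside 3.58%. The 6 were Adamts8, Adamts13, Mmp13, Mmp25, Timp1 and Timp4, and the 3 of DESeq2 Adamts13, Mmp13 and Timp1, all higher in 5-FU+ICB. Adamts13 and Timp4 passed the filter in the 5-FU matrix and not in the Cisplatin matrix, so that their calls are no support for these shares. In the full data the Timp1 difference was 0.76 ± 0.18 (log2 fold change ± SE, edgeR adjusted p = 0.114), and Mmp11 was lower in every 5-FU+ICB tumor than in any 5-FU tumor (-0.66, adjusted p = 0.196), the 1 gene of 35 without overlap where 1.42% of all genes had none.

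Between Cisplatin+ICB and ICB edgeR called 0 of 31 (5 at an unadjusted p under 0.05, 0 by DESeq2), where edgeR called 0% of all genes and DESeq2 0.275%. Between Cisplatin+ICB and Cisplatin it called 0 (7 at an unadjusted p under 0.05) with 0% of all genes called, and DESeq2 called 5, or 16.1% beside 4.37%. The largest difference was that of Mmp12, 3.76 ± 0.87 (log2 fold change ± SE, edgeR adjusted p = 0.0779). Without Cisplatin+ICB replicate 1 there were 6 calls, Mmp8, Mmp12, Mmp19, Mmp25 and Timp3 higher and Mmp23 lower, or 19.4% beside 11.9% of all genes in that fit. Without Cisplatin+ICB replicate 3 there were 3, Mmp8, Mmp12 and Mmp19, or 9.68% beside 3.04%.

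The 2 chemotherapies were compared in a model of all 28 tumors. Between 5-FU and Cisplatin edgeR called 0 of 35 (13 at an unadjusted p under 0.05) with 0.362% of all genes called, and DESeq2 called 9, or 25.7% beside 3.57%. Of the 35, 13 did not overlap between the groups, or 37.1% beside 12.5% of all genes. Among these, Mmp19 differed by 1.93 ± 0.51, Timp3 by 1.65 ± 0.48, Adamts15 by 2.64 ± 0.79 and Mmp2 by 1.64 ± 0.56 (log2 fold change of 5-FU against Cisplatin ± SE, edgeR adjusted p = 0.0835, 0.108, 0.114 and 0.162). Mmp9 and Mmp23 were the 2 of the 13 that were lower in 5-FU. Fitted on these 2 groups alone, edgeR called 10 of 33 genes, 8 higher and 2 lower in 5-FU, or 30.3% beside 5.62% of all genes. Between 5-FU+ICB and Cisplatin+ICB it called 0 of 35 (17 at an unadjusted p under 0.05) with 0.297% of all genes called, and 4 of 35 had no overlap beside 1.95% of all genes. DESeq2 called 8, of which Adamts17 was under the filter and 7 were among the 35, or 20% beside 8.5%. EdgeR called 8 without 5-FU+ICB replicate 2, or 22.9% beside 11.6% of all genes in that fit, and 4 without Cisplatin+ICB replicate 5, or 11.4% beside 6.1%. All shares for DESeq2 are over the genes past the filter of edgeR. Adamts19, among the 9, and Timp4, among the 7, did not pass the filter in the Cisplatin matrix, so that their calls are no support for these shares. The doses, routes and drugs differ, and each drug was given at 1 dose.

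Whether ICB acted differently together with chemotherapy was tested as an interaction, the effect of ICB on top of a drug minus its effect on PBS. For 5-FU edgeR called 0 of 35 (11 at an unadjusted p under 0.05, 0.0893% of all genes), whereas DESeq2 called 4, Adamts15, Mmp8, Mmp12 and Mmp25, each lower, or 11.4% beside 8.58% of all genes. In edgeR these were -2.56 ± 0.76 for Mmp25, -3.00 ± 1.19 for Mmp12, -3.08 ± 0.97 for Adamts15 and -3.58 ± 1.11 for Mmp8, whose PBS tumors had 0 to 3 counts (log2 scale ± SE, edgeR adjusted p = 0.0739, 0.136, 0.0799 and 0.0779). Without PBS replicate 3 edgeR called 1 gene, Mmp23, with a positive interaction, or 2.86% beside 9.27% of all genes in that fit. For Cisplatin it called 0 of 31 (3 at an unadjusted p under 0.05, 0 by DESeq2), where edgeR called 0% of all genes and DESeq2 0.00561%.

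Genes whose products activate, bind or anchor these enzymes were followed as lists. Their counts are to be read against all genes, of which 19% were called higher with ICB, 9.98% with 5-FU, 21.9% with 5-FU+ICB and 4.7% with Cisplatin+ICB. Of 6 genes of plasminogen activation, a route by which proforms of metalloproteinases are activated, 3 rose and 1 fell with ICB and 1 rose with Cisplatin+ICB. Serpinb2, an inhibitor of urokinase, rose with ICB, 5-FU, 5-FU+ICB and Cisplatin+ICB, with log2 fold changes of 3.93, 3.38, 5.34 and 4.90. Plat, the tissue activator, fell, with a log2 fold change of -0.76 with ICB, and Plau, urokinase, rose by 0.61.

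Of 8 membrane regulators and binding proteins, 3 rose and 1 fell with ICB, 4 rose and 2 fell with 5-FU and with 5-FU+ICB, and 1 of 7 tested rose with Cisplatin+ICB. The 4 of 8 with ICB were near the 37.8% of all genes called either way, and the 6 of 8 stood beside 23% with 5-FU and 40.7% with 5-FU+ICB. Reck, a membrane-anchored inhibitor of metalloproteinases, rose with ICB (1.39), 5-FU (1.61) and 5-FU+ICB (1.90, log2 fold changes). Lcn2, which binds Mmp9 and protects it, rose with 5-FU (3.07), 5-FU+ICB (4.74) and Cisplatin+ICB (2.51). The tetraspanin Cd151 fell with ICB (-1.23), 5-FU and 5-FU+ICB (-1.03), and Bsg, the metalloproteinase inducer basigin, with 5-FU (-0.64) and 5-FU+ICB (-0.59).

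Of 8 ADAM sheddases, membrane-bound relatives that release cell surface proteins, 4 rose with ICB, 4 with 5-FU, 6 with 5-FU+ICB and 1 with Cisplatin+ICB, beside 19%, 9.98%, 21.9% and 4.7% of all genes, and none fell. Adam8, a leukocyte sheddase, rose with ICB (2.07), 5-FU+ICB (1.65) and Cisplatin+ICB (1.85), and Adam12, a mesenchymal one, with 5-FU (1.08) and 5-FU+ICB (1.03, log2 fold changes). Adam17, which releases TNF, rose with ICB (1.26) and 5-FU+ICB (0.96). Of 7 ADAMTS-like genes, which lack the protease domain, 2 rose with ICB, 2 with 5-FU, 3 with 5-FU+ICB and 0 with Cisplatin+ICB, of which the counts for ICB and 5-FU, called either way, were near the 37.8% and 23% of all genes, and Adamtsl5 fell with 5-FU+ICB (-0.53). Cisplatin alone changed none of these genes by edgeR.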

How the data were processed

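RNA from 28 whole tumors was sequenced as single-end reads, and the authors quantified it with kallisto 0.46.0 on GRCm38 after bcl2fastq 2.20.0.422 and summed transcripts to genes with tximport. The deposited values are estimated counts per gene in 2 matrices, 1 for each drug, whose PBS and ICB columns are identical. Strand use is not given in the sources used here. The counts were rounded to whole numbers, filtered by edgeR's filterByExpr and scaled by TMM, which left 17916 genes in the 5-FU matrix, 17819 in the Cisplatin matrix and 18521 with both joined.

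Each comparison was a quasi-likelihood test in edgeR 4.0.16 (R 4.3.3) over all groups of its matrix, or over all 28 tumors where the drugs were compared. A gene was called at a Benjamini-Hochberg adjusted p under 0.05 together with a log2 fold change beyond 0.5 either way, thresholds that the study used with DESeq2. SEs were derived from the F statistic. DESeq2 1.42.0, its size factors, no filter, the replicate number as a block, the compared groups alone and leaving out each tumor were alternatives. The scripts were tested on simulated data. Intervals of count ratios cover counting error only.

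The genes and marker lists were chosen with earlier results of these data known. All tumor values are given for genes called with a mean of at least 50 counts and no overlap between the groups, and for the Timp genes. Mmp8, Mmp9, Adamts1, Adamts8 and other genes given in less detail were added after their values were seen. Overlaps between genes were computed from the annotation and from shared 31-base sequences of the transcripts. Some results of the plasminogen activation list are not reported here. Figures were drawn with matplotlib 3.10.9.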

Additional observations from a re-analysis of the deposited data

Results flagged for a closer look

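Single tumors stood apart from the others of their group in 14 of 120 sets of values, 20 genes in 6 groups. The measure, taken on log2 CPM with a prior count of 2 and not on the CPM printed here, was the gap of the highest or lowest tumor to its nearest neighbor, set against the whole range of the group by Dixon's 95% limit, which chance passes in about 5% of groups. Cisplatin+ICB replicate 1 accounted for 6 of the 14. It was the lowest of its group for Adamts12 (1.48 CPM, the others 7.33 to 11.4 CPM), Adamts14 (6.15 CPM, the others 27.7 to 30.9 CPM), Mmp2 (9.96 CPM, the others 87.5 to 192 CPM), Mmp15 (0.159 CPM, the others 2.39 to 4.33 CPM) and Timp2 (243 CPM, the others 416 to 433 CPM). It was the highest for Mmp23, at 88.7 CPM where the others had 13.2 to 15.3 CPM. Its fibroblast sum was the lowest and its osteoclast sum the highest of the 28 tumors, at 2467 and 3345 CPM, and their part in these values was not tested.

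5-FU+ICB replicate 5 was the lowest of its group for Mmp11 (11.6 CPM, the others 26.2 to 30.0 CPM) and the highest for Mmp15 (33.0 CPM, the others 4.96 to 7.07 CPM). The remaining 6 came from as many tumors. Mmp13 was highest in ICB replicate 2, at 35.3 CPM beside 3.04 to 5.60 CPM. Adamts9 was highest in 5-FU replicate 5, at 16.2 CPM beside 10.1 to 11.6 CPM. Mmp15 was highest in 5-FU replicate 3, at 9.57 CPM beside 3.59 to 4.73 CPM. Adamts15 was highest in PBS replicate 4, at 2.99 CPM beside 1.18 to 1.32 CPM. Mmp19 was highest in PBS replicate 2, at 21.5 CPM beside 18.4 to 18.7 CPM. Mmp3 was lowest in Cisplatin replicate 3, at 10.9 CPM beside 15.0 to 15.8 CPM.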

How the results depend on the processing

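Of 733 alternative values of the 52 calls, 615 stayed past the threshold in the same direction, 118 kept the direction and missed the threshold, and 0 reversed. DESeq2 kept all 52, its size factors 51, no filter on low counts 44, the compared groups alone 40 of 48, and the matrix of the Cisplatin groups 8 of 11 for ICB. The number of genes called moved by over 1.5 times with DESeq2 in Cisplatin+ICB against PBS (8 in place of 5), Cisplatin+ICB against Cisplatin (5 in place of 0), 5-FU+ICB against 5-FU (3 in place of 0), 5-FU against Cisplatin (9 in place of 0), 5-FU+ICB against Cisplatin+ICB (8 in place of 0) and the interaction of 5-FU with ICB (4 in place of 0). DESeq2 was not limited to genes past edgeR's filter, and 1 of each 8 was a gene under it, Adamts16 in Cisplatin+ICB against PBS (leaving 7 of 31, or 22.6% beside 11.5% of all genes) and Adamts17 in 5-FU+ICB against Cisplatin+ICB. With the compared groups alone it was 0 in Cisplatin+ICB against PBS and 10 in 5-FU against Cisplatin. The cause was not tested.

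The labels number the tumors of each group, but same-numbered tumors did not deviate together (8 of 27, 7 of 25 and 21 of 66 such pairs correlated over 0.1), so that the numbers do not pair them. With the replicate number as a block 38 of 52 calls were kept, and 1 gene in place of 5 was called in Cisplatin+ICB against PBS. With a tumor left out, the number called was 9 to 17 for ICB, 8 to 16 for 5-FU, 18 to 22 for 5-FU+ICB, 0 for Cisplatin and 0 to 11 for Cisplatin+ICB, each against PBS, where 28.4% to 39.8%, 7.87% to 25.9%, 30.6% to 48.8%, 0% and 0% to 35.3% of all genes were called in the same fits. It was 17 for ICB without ICB replicate 4. For 5-FU it was 9 without PBS replicate 1 or 5-FU replicate 5, and 8 without PBS replicate 2. It was 0 to 1 for 5-FU+ICB against ICB, 0 to 6 against 5-FU, 0 for Cisplatin+ICB against ICB, 0 to 6 against Cisplatin, 0 for 5-FU against Cisplatin, 0 to 8 for 5-FU+ICB against Cisplatin+ICB, 0 to 1 for the interaction of 5-FU and 0 for that of Cisplatin, with at most 0.468%, 10.9%, 0%, 11.9%, 0.417%, 11.6%, 9.27% and 0% of all genes called, in the same order. Calls kept in every such fit were 8 of 11 for ICB, 7 of 15 for 5-FU, 16 of 21 for 5-FU+ICB and 0 of 5 for Cisplatin+ICB. TMM put the median difference of mean log2 CPM over all genes in Cisplatin+ICB against PBS at -0.11 and size factors at -0.03. Genes near 3 counts per tumor, 0.0884 to 0.127 CPM, could not be told from 0.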
